A study of Mus musculus with 34 samples.

Results

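The comparison is between untransformed controls: the C17.2 mouse neural stem cell line and primary mouse neural stem cells (NSC), both carrying the pBabe retroviral vector without an insert. It rests on 9 of the 34 arrays of the series, namely every array labelled as a control: 4 of C17.2 and 5 of NSC taken from the E13.5 telencephalon. The other 25 arrays carry STAT3C (a constitutively active STAT3), CEBPB or both in the same cells, and they are used below as arrays that had no part in the calls. Where NSC received both factors, their labels say STAT3 rather than STAT3C. Each array received 200 ng of total RNA. The labels give neither a mouse strain nor a sex, and they do not say which arrays are separate cultures, so the p-values take in array-to-array spread only, which may be technical. Of 19053 genes with a probe, 8958 were tested, those whose probe had a detection p below 0.05 on all arrays of at least 1 of the groups.

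As background, primary NSC from the embryonic forebrain are radial glial cells and their progeny, which keep the transcription factors Sox2 and Sox9 and glial transporters, and turn to neurons, astrocytes or oligodendrocytes when growth factors are withdrawn. C17.2 is a single clone from the cerebellum of newborn mice that was made immortal with the viral oncogene v-myc, and it is grown attached in serum in most laboratories. Region of origin, age, immortalisation and passage therefore all separate the groups along with cell type, and these cannot be told apart. Nor can slide: all C17.2 controls lay on slide 1, NSC control replicates 1 to 3 on slide 4, and replicates 4 and 5 on slide 6.

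The arrays fell apart by cell type. Pearson's r over the tested genes, given as a description, was 0.957 to 0.984 between C17.2 controls, 0.935 to 0.996 between NSC controls and 0.739 to 0.783 between the cell types. NSC controls had more probes detected, 36.9% to 41.7% of all probes against 34% to 35.6% in C17.2. Differences are given on the log2 scale as C17.2 minus NSC, so a negative value is higher in NSC. The median gene differed between group means by 0.56 in size, with a median standard error (SE) of 0.20, and the median signed difference was -0.01. A gene was called at a Benjamini-Hochberg adjusted p below 0.05 in limma together with a difference of at least 2-fold, and 2391 genes (26.7% of those tested) were called, 1096 (12.2%) higher in C17.2 and 1295 (14.5%) higher in NSC. With no limit on size 4642 genes (51.8%) passed, 2280 (25.5%) higher in C17.2 and 2362 (26.4%) higher in NSC. A total of 380 called genes were at least 4-fold higher in C17.2 and 510 at least 4-fold higher in NSC. Signals of the groups did not overlap for 3951 genes (44.1%). A gene detected in 1 group alone entered the test through that group: 120 genes were detected on all C17.2 and no NSC controls, and 584 on all NSC and no C17.2 controls. Among the 7055 genes detected on all 9 arrays by any of their probes, 744 were called higher in C17.2 and 584 higher in NSC (18.8% together, median 0.06). For most gene lists the count over tested members is therefore followed by the count over members detected on all 9 arrays. The reason is that a member that entered through 1 group had to differ. Shares called are given in the same order, beside 26.7% and 18.8% of all genes. The NSC controls of slide 4 and slide 6 were also set against each other: limma called 0 of 9587 genes, while 2368 had an unadjusted p below 0.05, and r between these slides was 0.935 to 0.952. Leaving out NSC replicate 3 or replicate 5 gave 93 and 91 called genes in that comparison. In the authors' deposited normalised values, in which differences were smaller throughout, 334 and 411 genes reached both limits, and 2230 and 2212 passed the adjusted p alone.

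Some arrays stood apart from their group. Sox10, a transcription factor of neural crest and oligodendrocyte cells, had log2 signals of 12.54, 13.04, 8.51 and 12.52 in the C17.2 controls and 4.60, 4.56, 4.53, 4.5 and 5.27 in the NSC controls. C17.2 replicate 3 lay far below the other C17.2 arrays and still above every NSC array. Ngfr, the low-affinity neurotrophin receptor, read 10.91, 11.52, 6.12 and 10.66 in the C17.2 controls and 4.64, 4.54, 5.12, 4.65 and 4.66 in the NSC controls, with the same C17.2 array low. Notch1 read 8.74, 8.99, 4.74 and 8.35 in the C17.2 controls, and its replicate 3 was at background. Of the 52 tested genes with a standard deviation (SD) above 1.2 among C17.2 controls, replicate 3 was the array farthest from the median for 37. Among them Gas7 read 11.70, 12.43, 6.78 and 11.41 and Plekhb1 9.22, 10.89, 4.45 and 9.11. In NSC, 72 genes had an SD above 1.2, and replicate 4 was the farthest for 55. Replicate 4 alone among NSC controls had the signal of Eif2s3y, a Y-linked gene (4.77, 4.48, 4.31, 8.56 and 4.59), and it alone lacked Xist, the RNA that silences an X chromosome in females (10.95, 10.94, 10.10, 4.44 and 9.09). All C17.2 controls had Eif2s3y (9.40, 9.05, 9.05 and 8.25) and Xist at background (4.41, 4.39, 4.43 and 4.48). Csrp1, a LIM protein of the cytoskeleton, read 4.63, 4.77, 4.57, 9.32 and 4.69 in NSC and 10.42, 10.38, 10.99 and 10.64 in C17.2, so NSC replicate 4 was near C17.2 there. Cofilin 1 (Cfl1), an actin-severing protein, read 4.44, 4.47, 4.49, 9.12 and 4.51 in NSC against 9.36, 9.18, 9.07 and 9.37 in C17.2, again with replicate 4 beside C17.2. Without C17.2 replicate 3 and NSC replicate 4 together, an alternative chosen after seeing the data, 1097 and 1260 genes were called, and 1003 of the 1096 and 1175 of the 1295 genes called with all 9 arrays were still called. Whether these arrays come from different animals, strains or cultures was not tested.

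**Figure D1:**
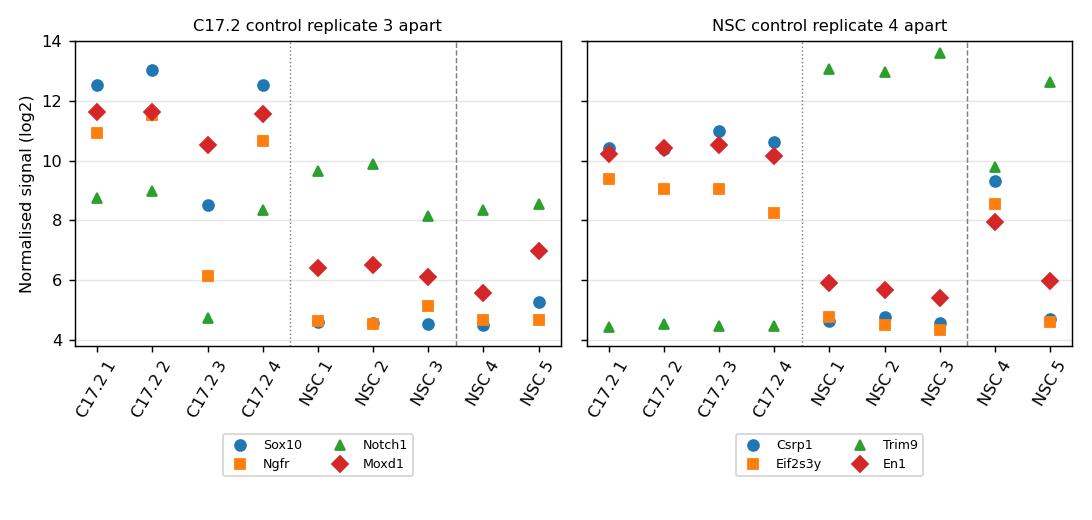
Normalised log2 signal (vertical axis) of 4 genes on each of the 9 control arrays (horizontal axis), for genes with C17.2 replicate 3 apart (left) and with NSC replicate 4 apart (right); the dotted line divides the cell types and the dashed line slides 4 and 6. Sox10 is 8.51 on C17.2 replicate 3 and at least 12.52 on the other C17.2 arrays, and Csrp1 is 9.32 on NSC replicate 4 and at most 4.77 on the other NSC arrays.

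The largest differences toward C17.2 included calcium-binding proteins, a matrix protease, a membrane scaffold and actin-binding proteins. S100a6, a small calcium-binding protein, read 11.44, 11.53, 11.65 and 11.69 in the C17.2 controls and 4.94, 4.86, 4.91, 4.66 and 4.83 in the NSC controls. Its neighbour on chromosome 3, S100a4, read 11.11, 11, 11.12 and 10.86 in the C17.2 controls and 4.76, 5.27, 5.10, 4.98 and 4.65 in the NSC controls. Neither gene had overlapping groups, and the arrays of each cell type lay close together. S100a6 differed by 6.74 ± 0.14 (SE), adjusted p = 2.5e-11, and S100a4 by 6.07 ± 0.16 (SE), adjusted p = 1.2e-10. Adh7, an alcohol dehydrogenase that also oxidises retinol, read 11.01, 10.96, 11.25 and 10.41 in the C17.2 controls and 4.42, 4.45, 4.43, 4.45 and 4.34 in the NSC controls, and no NSC array detected it. Against the floor of detection on those arrays Adh7 was at least 60.6-fold higher in C17.2 (adjusted p = 1.2e-10). Capn6, a calpain without protease activity, was likewise undetected in NSC and at least 59.6-fold higher (adjusted p = 3.8e-10). Mmp2, a gelatinase that cuts matrix, read 12.77, 13.54, 12.40 and 12.97 in the C17.2 controls and 5.0, 5.34, 5.83, 7.49 and 7.01 in the NSC controls. Within NSC, replicates 4 and 5 read higher than replicates 1 to 3, and all stayed far below C17.2, a difference of 6.79 ± 0.47 (SE), adjusted p = 3.3e-07.

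The 300 bases around the start of these genes are shown because the neighbours S100a4 and S100a6 move together, with Twist2, a mesenchymal transcription factor detected in C17.2 alone, beside them. Sequences are from RefSeq, build GRCm38.p6, run along the strand of the gene and lie mostly upstream of its start, and CG pairs are in capitals. S100a6 is chr3:90612644-90612943 (plus strand), S100a4 is chr3:90603520-90603819 (plus strand) and Twist2 is chr1:91801211-91801510 (plus strand).
S100a6: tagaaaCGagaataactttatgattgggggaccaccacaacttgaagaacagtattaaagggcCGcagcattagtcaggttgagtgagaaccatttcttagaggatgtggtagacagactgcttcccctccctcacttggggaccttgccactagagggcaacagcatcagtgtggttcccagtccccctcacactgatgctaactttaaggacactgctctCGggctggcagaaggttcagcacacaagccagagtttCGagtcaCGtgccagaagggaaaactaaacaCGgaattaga
S100a4: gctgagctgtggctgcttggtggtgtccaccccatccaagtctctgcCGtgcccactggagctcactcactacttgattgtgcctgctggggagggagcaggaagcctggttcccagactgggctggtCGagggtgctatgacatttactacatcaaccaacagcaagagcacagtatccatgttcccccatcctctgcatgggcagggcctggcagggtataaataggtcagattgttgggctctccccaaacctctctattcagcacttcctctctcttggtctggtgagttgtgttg
Twist2: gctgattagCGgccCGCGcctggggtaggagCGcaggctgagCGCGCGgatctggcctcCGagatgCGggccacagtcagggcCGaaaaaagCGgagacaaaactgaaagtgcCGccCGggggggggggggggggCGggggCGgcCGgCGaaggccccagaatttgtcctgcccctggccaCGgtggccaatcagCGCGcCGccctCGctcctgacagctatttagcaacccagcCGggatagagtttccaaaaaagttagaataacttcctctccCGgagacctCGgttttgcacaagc
The windows hold 6, 2 and 25 CG pairs in that order. The motif TATAAA, searched on both strands, is in the S100a4 window from base 220, in 14.2% of the 27025 windows searched and in 6.87% of those of the genes tested. It was in 11.3% of the windows of genes called higher in C17.2 and 7.71% of those called higher in NSC, given as a description.

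Other large differences toward C17.2 were in scaffold, matrix and membrane genes. Ahnak, a giant scaffold protein beneath the membrane, differed by 7.31 ± 0.30 (SE), adjusted p = 3.4e-09, and its other probes differed by 1.29 to 7.02. Gpnmb, a glycoprotein of lysosomes and melanosomes, differed by 6.62 ± 0.29, and Tgfbi, a matrix protein induced by TGF-beta, by 6.39 ± 0.36. Serpinf1, which encodes the secreted factor PEDF, was spread in C17.2 (13.32, 11.18, 12.90 and 11.64) and tight in NSC (6.20, 6.40, 5.47, 6.27 and 6.38), a difference of 6.11 ± 0.40. Gask1b, a Golgi-associated kinase-like gene, by a probe above background on no NSC array, was at least 52.3-fold higher, and Capg, an actin-capping protein, differed by 5.83 ± 0.21. Genes detected on all 9 arrays followed. Col5a1, a fibril collagen chain, read 12.42, 12.31, 12.51 and 12.37 in the C17.2 controls and 7.66, 7.54, 7.42, 7.59 and 7.77 in the NSC controls. Its groups lay apart by over 4 log2 units with little spread, a difference of 4.81 ± 0.14 (SE), adjusted p = 2e-10. Igfbp7, a secreted insulin-like growth factor binding protein, differed by 5.57 ± 0.29, and Emp3, an epithelial membrane protein, by 5.24 ± 0.24. Plpp2, a lipid phosphatase, differed by 5.19 ± 0.18, the monooxygenase-like gene Moxd1 by 5.03 ± 0.30, and the tetraspanin Tspan17 by 4.87 ± 0.32. Adjusted p was 7e-09 for Gpnmb and at most 2.2e-07 for each other gene of this paragraph.

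The largest differences toward NSC included a glial transcription factor, a glial transporter and a secreted growth factor, all undetected in C17.2. Olig1, a transcription factor of the oligodendrocyte lineage, read 4.43, 4.47, 4.48 and 4.46 in the C17.2 controls and 14.28, 14.30, 13.61, 13.91 and 14.01 in the NSC controls. All C17.2 arrays were at background, and Olig1 was at least 447-fold higher in NSC (log2 difference -9.57 ± 0.17 (SE), adjusted p = 8e-12). Slc1a3, the glutamate transporter GLAST of radial glia and astrocytes, read 4.63, 4.71, 4.57 and 4.37 in the C17.2 controls and 14.14, 14.27, 14.01, 13.36 and 14.05 in the NSC controls. It was at least 430-fold higher in NSC (adjusted p = 2.5e-11), although NSC replicate 4 was somewhat lower than the rest. Ptn, the secreted growth factor pleiotrophin, read 4.5, 4.73, 4.56 and 4.62 in the C17.2 controls and 14.01, 13.96, 13.83, 14.19 and 13.55 in the NSC controls, at least 413-fold higher in NSC (adjusted p = 8e-12). Ckb, brain creatine kinase, was detected in both and read 8.53, 8.74, 8.97 and 9.59 in the C17.2 controls and 15.07, 15.18, 14.99, 15.39 and 15.22 in the NSC controls. It had the largest difference toward NSC among genes detected on every array by probes that did not disagree, -6.21 ± 0.21 (SE), adjusted p = 6.6e-10.

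The same windows are shown for Slc1a3 and Ptn, which head the NSC side, and for Egfr, the receptor of the growth factor on which such cultures are usually kept. Slc1a3 is chr15:8710758-8711057 (minus strand), Ptn is chr6:36810130-36810429 (minus strand) and Egfr is chr11:16751953-16752252 (plus strand), and capitals mark CG pairs as before.
Slc1a3: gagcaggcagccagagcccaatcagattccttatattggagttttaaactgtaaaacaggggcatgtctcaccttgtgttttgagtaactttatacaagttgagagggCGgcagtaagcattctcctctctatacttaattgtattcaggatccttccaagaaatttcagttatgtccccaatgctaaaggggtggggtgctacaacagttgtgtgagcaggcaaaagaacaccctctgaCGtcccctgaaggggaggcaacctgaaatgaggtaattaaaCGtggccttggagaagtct
Ptn: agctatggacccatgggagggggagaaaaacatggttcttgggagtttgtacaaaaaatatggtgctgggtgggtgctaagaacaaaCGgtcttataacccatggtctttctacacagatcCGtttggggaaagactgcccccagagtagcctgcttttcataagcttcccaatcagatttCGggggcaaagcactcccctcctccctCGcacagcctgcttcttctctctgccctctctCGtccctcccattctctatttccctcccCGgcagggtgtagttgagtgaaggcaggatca
Egfr: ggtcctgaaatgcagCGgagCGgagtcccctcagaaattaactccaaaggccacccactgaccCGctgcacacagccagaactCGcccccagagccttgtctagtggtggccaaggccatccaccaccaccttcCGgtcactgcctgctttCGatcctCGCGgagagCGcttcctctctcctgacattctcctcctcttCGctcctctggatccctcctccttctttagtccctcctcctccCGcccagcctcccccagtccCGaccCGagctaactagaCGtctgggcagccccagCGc
They hold 3, 6 and 15 CG pairs, and the Slc1a3 window holds TATAAA on the other strand, read here as TTTATA from base 90. As a description with no test, the median window held 22 CG pairs for the 5843 genes with a window that were detected on all 9 arrays, 18 for the 449 detected on all NSC and no C17.2 controls, 12 for the 89 detected on all C17.2 and no NSC controls, and 7 over all windows.

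Several more NSC genes were undetected in C17.2. Trim9, a neuronal ubiquitin ligase, was at least 146-fold higher in NSC, with replicate 4 lowest (13.08, 12.97, 13.59, 9.78 and 12.62). Slc25a18, a mitochondrial glutamate carrier, was at least 143-fold higher, and the potassium channel Kcnc1 at least 131-fold. Car3, a carbonic anhydrase, read 12.71, 12.81, 12.91, 10.04 and 11.87 in NSC and was at least 115-fold higher. Camk2b, a calcium-dependent kinase of neurons, was at least 115-fold higher and Ednrb, an endothelin receptor, at least 109-fold. Fbln2, a matrix glycoprotein, and Kif1a, a kinesin of axonal transport, were at least 83.3-fold and 59.3-fold higher by probes above background on no C17.2 array, though another probe of each was detected on 1 C17.2 array. Sox9, a transcription factor of radial glia, read 6.19, 6.78, 7.32 and 6.28 in the C17.2 controls and 11.35, 11.39, 11.33, 11.43 and 11.57 in the NSC controls. The groups lay over 4 log2 units apart, a difference of -4.77 ± 0.22 (SE), adjusted p = 1e-08. Zeb1, a zinc finger repressor, differed by -5.12 ± 0.29, Igfbp3 by -5.70 ± 0.54, and Plekha2, a phosphoinositide-binding protein, by -4.87 ± 0.34. Adjusted p for the genes of this paragraph was at most 4.5e-06. For a few genes the probes disagreed: Rfx4, a factor of cilia and midline patterning, was at least 84.4-fold higher in NSC on the brightest probe, which no C17.2 array detected, and differed from -3.11 to 0.60 on the others. Palmd was at least 24.5-fold higher on its brightest probe against differences of -4.50 and 0.52 on the others, and Igdcc4 differed by -5.08 ± 0.30 against -1.44 and 0.15.

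**Figure D2:**
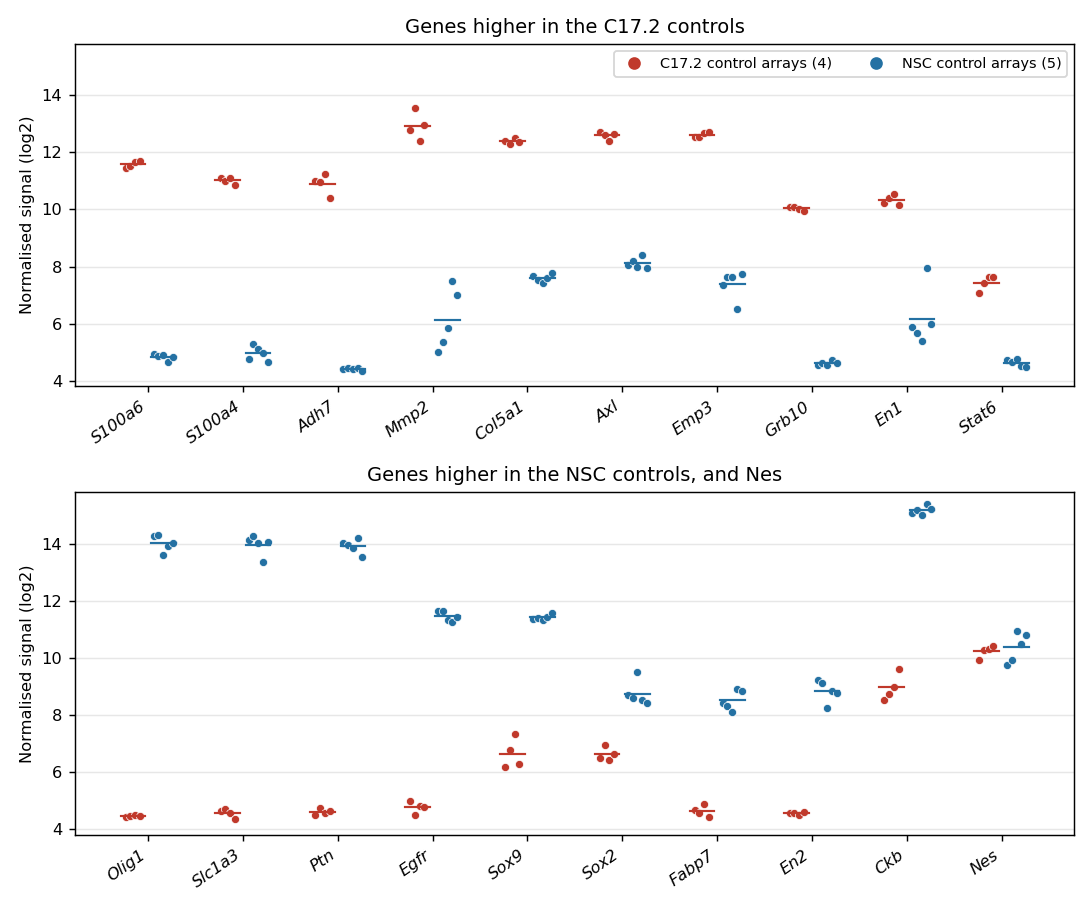
Normalised log2 signal (vertical axis) of 20 genes on the 4 C17.2 control arrays (red) and the 5 NSC control arrays (blue); points are arrays and bars are group means. Groups are apart for every gene drawn except Nes, whose C17.2 arrays all lie within the NSC range of 9.73 to 10.92.

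Every neural stem and radial glia gene that was called was higher in NSC. Of 21 tested members 15 were called higher in NSC and 0 higher in C17.2, with a median difference of -2.56 against -0.01 over all genes. Among the 8 members detected on all 9 arrays, 4 were called, all higher in NSC, with a median of -0.87. Shares called were 71.4% and 50%, against 26.7% and 18.8% of all genes. Sox2, a factor of neural stem cell self-renewal, read 6.5, 6.94, 6.41 and 6.62 in the C17.2 controls and 8.68, 8.59, 9.52, 8.51 and 8.42 in the NSC controls. All NSC arrays were above all C17.2 arrays, a difference of -2.13 ± 0.23 (SE), adjusted p = 1.4e-05. Nes, the intermediate filament nestin, read 9.93, 10.27, 10.30 and 10.41 in the C17.2 controls and 9.73, 9.93, 10.92, 10.50 and 10.79 in the NSC controls. The groups overlapped and Nes did not pass the test (-0.15 ± 0.25, adjusted p = 0.65). Fabp7, a fatty acid carrier of radial glia, read 8.41, 8.30, 8.10, 8.91 and 8.83 in NSC, was detected on no C17.2 array and was at least 9.78-fold higher in NSC. Sox21 differed by -6.38 ± 0.30, the receptor phosphatase Ptprz1 by -5.57 ± 0.29, and brevican (Bcan), a matrix proteoglycan of the brain, was at least 24-fold higher in NSC, with adjusted p of at most 2.8e-08. Pax6 and Prom1 were detected on none of the 9 arrays. Pou3f2 was not analysed here. The proneural glioma list, which shares members with this one, had 11 of 15 tested genes higher in NSC and 0 higher in C17.2 (median -1.77). Of its 7 detected on all 9 arrays, 4 were higher in NSC and 0 in C17.2. Calls made up 73.3% and 57.1% of the proneural list, against 26.7% and 18.8% of all genes.

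Of 24 telencephalic patterning genes with a probe 9 were detected on no control array and 8 were tested. Emx1, Emx2, Nkx2-1, Gsx2, Eomes and Tbr1 were among those detected on none. Lhx2, a forebrain homeobox gene, was low, with 5.36, 5.28, 5.28, 5.45 and 6.11 in NSC, and undetected in C17.2, a difference of -1.08 ± 0.19 (SE), adjusted p = 0.00054. It was at least 1.21-fold higher in NSC, and without NSC replicate 5 its difference was -0.93, under the size limit. Otx1, a homeobox gene of forebrain and midbrain, differed by -2.28 ± 0.20 (SE), adjusted p = 2.5e-06. Otx2 read 6.71, 6.66, 6.43, 9.17 and 7.95 in NSC and was at least 4.49-fold higher there, with NSC replicates 4 and 5 above the others. Of 8 tested telencephalic genes 4 were called higher in NSC, the last being Bcl11b (at least 1.28-fold), and 2 higher in C17.2. These were Nr2f2, a nuclear receptor of caudal forebrain (2.83 ± 0.25, adjusted p = 2.8e-06), and Dlx1 (1.06 ± 0.24, adjusted p = 0.0028). Dlx1 fell under the size limit without C17.2 replicate 1 (0.85) or NSC replicate 4 (0.96). Of the 2 members detected on all 9 arrays, 1 was higher in NSC and 1 in C17.2. Calls made up 75% of the tested members, against 26.7% of all genes.

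Of 29 midbrain and hindbrain genes with a probe 14 were detected on no control array and 11 were tested. Calls made up 90.9% of the 11 and 83.3% of the 6 detected on all 9 arrays, against 26.7% and 18.8% of all genes. En2, an engrailed homeobox gene of the midbrain and cerebellum, read 4.57, 4.56, 4.48 and 4.59 in the C17.2 controls and 9.24, 9.12, 8.25, 8.82 and 8.75 in the NSC controls. En1, its relative, read 10.24, 10.41, 10.53 and 10.17 in the C17.2 controls and 5.88, 5.67, 5.40, 7.95 and 5.98 in the NSC controls. The pair ran opposite ways: En1 was higher in C17.2 (4.16 ± 0.42 (SE), adjusted p = 9.2e-06), with NSC replicate 4 the highest NSC array, and En2 was detected in NSC alone, at least 12.3-fold higher (adjusted p = 9.8e-09). Zic1, a zinc finger factor of the cerebellum and dorsal neural tube, read 9.17, 8.99, 8.35, 9.18 and 9.40 in NSC and was at least 13.9-fold higher. Gbx2, which sets the midbrain-hindbrain border, read 7.90, 7.95, 6.79, 7.66 and 7.18 and was at least 4.86-fold higher (adjusted p = 8.6e-07). Meis2, a cofactor of homeobox proteins, differed by -2.33 ± 0.18 (SE), adjusted p = 8e-07. In all, 9 of the 11 tested genes of this list were called higher in NSC and 1 in C17.2 (median -1.63), and of its 6 detected on all 9 arrays, 4 were higher in NSC and 1 in C17.2. So the cells labelled as telencephalic carried En2, Zic1 and Gbx2, while Emx1, Emx2, Nkx2-1, Gsx2, Eomes and Tbr1 were not detected in them.

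Hox genes, which mark hindbrain and trunk, were higher in C17.2 wherever they were called. Of 38 with a probe, 6 were tested, and 5 were called higher in C17.2 and 0 higher in NSC (median 1.64). That is 83.3% of the tested members, against 26.7% of all genes. All 5 entered the test through C17.2 alone, and the 1 Hox gene detected on all 9 arrays was not called. Hoxc9 read 7.17, 8.02, 8.18 and 7.55 in the C17.2 controls and 4.59, 4.68, 4.60, 4.78 and 5.28 in the NSC controls. Hoxd8 read 7.18, 6.98, 6.59 and 6.79 in the C17.2 controls and 4.70, 4.57, 4.62, 4.53 and 4.83 in the NSC controls. Neither overlapped, with differences of 2.94 ± 0.23 and 2.24 ± 0.16 (adjusted p = 8.9e-07 and 3.7e-07), and Hoxd8 was at least 3.74-fold higher. Hoxb4 was at least 2.75-fold and Hoxc6 at least 1.87-fold higher in C17.2. Hoxa5 overlapped between the groups (1.13 ± 0.43 (SE), adjusted p = 0.044) and lost its call in 14 of the alternatives, with an adjusted p of 0.136 without C17.2 replicate 3. In the authors' deposited values none of these 5 reached 2-fold.

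Oligodendrocyte and neural crest genes split. Besides Olig1, NSC had Olig2 (8.25, 8.26, 8.12, 8.11 and 7.71), its relative needed for motor neurons and oligodendrocytes, at least 7.32-fold above C17.2. Bcas1, a gene of early myelinating cells, was at least 40.4-fold higher in NSC. In C17.2, Sox10 (values above) differed by 6.96 ± 0.74 (SE), adjusted p = 1.3e-05, with all 4 arrays above NSC. Ngfr differed by 5.08 ± 0.86 (SE), adjusted p = 0.00048. Tfap2a, a factor of neural crest, read 8.66, 8.29, 8.29 and 8.69 in the C17.2 controls and 4.74, 4.66, 4.68, 4.54 and 5.27 in the NSC controls, with the C17.2 arrays close together, a difference of 3.70 ± 0.18 (SE), adjusted p = 1.7e-08. Of 9 tested oligodendrocyte genes 5 were called higher in NSC and 1, Sox10, in C17.2, and of 8 neural crest and Schwann genes 3 were higher in C17.2 and 2 in NSC, Ednrb and Egr2 (-1.63 ± 0.17, adjusted p = 1.2e-05). All 5 oligodendrocyte genes higher in NSC were undetected in C17.2, and of that list's 2 detected on all 9 arrays, 0 were higher in NSC and 0 in C17.2 (median 0.52). Of the neural crest list's 3 detected on all 9 arrays, 1 was higher in NSC and 0 in C17.2. Calls made up 66.7% and 0% of the oligodendrocyte list and 62.5% and 33.3% of the neural crest list. The rates over all genes were 26.7% and 18.8%. Leaving out C17.2 replicate 3 and NSC replicate 4 gave 2 higher in C17.2 and 5 in NSC for the oligodendrocyte list.

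Of 16 tested neuronal genes 10 were higher in NSC and 2 higher in C17.2 (median -1.58). Of the 6 detected on all 9 arrays, 2 were higher in NSC and 1 in C17.2 (median -0.21). Shares called were 75% and 50%, against 26.7% and 18.8% of all genes. Map2, a dendritic microtubule protein, read 9.67, 9.25, 7.54 and 9.03 in the C17.2 controls and 11.02, 11.13, 10.81, 11.62 and 10.86 in the NSC controls. The groups lay apart by -2.21 ± 0.36 (SE), adjusted p = 0.00038. Elavl3, a neuronal RNA-binding protein, was at least 2.99-fold higher in NSC, Gap43, a protein of growth cones, at least 8.4-fold, and Sox11 differed by -5.35 ± 0.57 with 2 C17.2 arrays at background (7.31, 7.43, 4.70 and 4.42). Nefm, a neurofilament chain, read 8.16, 7.64, 8.66 and 8.41 in the C17.2 controls and 4.59, 4.77, 5.23, 4.59 and 4.54 in the NSC controls, and here C17.2 was the higher group, by 3.48 ± 0.22 (SE), adjusted p = 1.8e-07. Crmp1, a collapsin response mediator, was also higher in C17.2 (1.31 ± 0.23 (SE), adjusted p = 0.00069). Tubb3 was detected on 1 C17.2 array and no NSC array, and Dcx on 2 NSC arrays and no C17.2 array.

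Of 15 tested astrocyte genes 9 were higher in NSC and 2 higher in C17.2 (median -1.60). Of the 7 detected on all 9 arrays, 1 was higher in NSC and 2 in C17.2 (median -0.14). So more members were higher in NSC only where members not detected on every array were counted. Shares called were 73.3% and 42.9%, against 26.7% and 18.8% of all genes. Aldoc, a brain aldolase, differed by -6.33 ± 0.29 (SE), adjusted p = 1e-08, and Aldh1l1, a folate enzyme of astrocytes, read 8.34, 8.36, 8.83, 6.55 and 9.10 in NSC, with replicate 4 lowest, and was at least 8.11-fold higher. Nfia, a factor that starts gliogenesis, differed by -3.0 ± 0.21, and Aqp4, a water channel, was at least 1.71-fold higher in NSC by a probe that no C17.2 array detected. Gfap, the astrocyte intermediate filament, was detected on every NSC control but replicate 4 (5.72, 5.79, 5.49, 4.85 and 6.65) and on no C17.2 control, so it did not enter the test. Pdgfra, a receptor of oligodendrocyte precursors, had the same pattern (6.53, 6.42, 5.56, 4.73 and 5.97).

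Most matrix and mesenchymal genes were higher in C17.2. Of 31 tested members 25 were called higher in C17.2 and 4 higher in NSC, with a median difference of 2.52. Among the 13 detected on all 9 arrays 10 were higher in C17.2 and 1 in NSC (median 2.18). Shares called were 93.5% and 84.6%, against 26.7% and 18.8% of all genes. Fn1, fibronectin, read 10.01, 10.04, 11 and 9.99 in the C17.2 controls and 6.57, 6.77, 7.02, 6.59 and 5.68 in the NSC controls. Col3a1, a fibrillar collagen of loose tissue, read 9.39, 9.38, 8.67 and 8.69 in the C17.2 controls and 4.56, 4.55, 4.60, 4.56 and 5.13 in the NSC controls. For both, every C17.2 array was above every NSC array, by 3.74 ± 0.29 (SE), adjusted p = 8.6e-07, and 4.35 ± 0.21 (SE), adjusted p = 1.5e-08. Col1a1 was undetected in NSC, at least 3.17-fold higher in C17.2, and Col1a2 differed by 1.51 ± 0.18 (adjusted p = 2.9e-05). Snai1, Snai2 and Twist2, transcription factors of the mesenchymal transition, and Thbs1 and Col8a1 were detected in C17.2 alone. The 4 higher in NSC were Fbln2 and Zeb1, described above, Prrx1, a homeobox gene of mesenchyme, at least 3.45-fold, and Fbln1 (-1.26 ± 0.48 (SE), adjusted p = 0.046). Fbln1 lost its call in 14 of the alternatives and was -0.78 without NSC replicate 4. Zeb1, a repressor grouped with Snai1 and Snai2 for its role in the same transition, thus ran against them.

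Of 17 tested contractile genes 12 were called higher in C17.2 and 1 higher in NSC (median 1.76). Of the 10 detected on all 9 arrays, 0 were higher in NSC and 7 in C17.2. Calls made up 76.5% and 70%, against 26.7% and 18.8% of all genes. Actn1, which cross-links actin, read 11.44, 11.27, 12.66 and 12.03 in the C17.2 controls and 8.39, 8.47, 8.31, 7.03 and 7.15 in the NSC controls. Tpm1, a tropomyosin, read 13.07, 12.59, 13.64 and 13.40 in the C17.2 controls and 9.75, 9.74, 10.03, 10.32 and 10.12 in the NSC controls. Both were apart in all arrays (3.98 ± 0.38 (SE), adjusted p = 4.7e-06, and 3.18 ± 0.22 (SE), adjusted p = 3.3e-07). Acta2, smooth muscle actin, read 11.82, 11.63, 11.60 and 11.50 in the C17.2 controls and 11.45, 11.87, 11.40, 6.85 and 9.72 in the NSC controls. NSC replicates 1 to 3 overlapped C17.2 while replicates 4 and 5 were lower, and the difference did not pass (1.38 ± 0.83 (SE), adjusted p = 0.18). Against the slide 6 NSC controls alone it was 3.35. Myl9, a myosin light chain, was the NSC member, at least 4.22-fold higher. Csrp1 differed by 5.01 ± 0.84 (SE), adjusted p = 0.00043, with NSC replicate 4 near C17.2 as given above.

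Of 28 tested genes of the mesenchymal class of glioma 16 were higher in C17.2 and 5 higher in NSC (median 1.42). Of the 21 detected on all 9 arrays, 4 were higher in NSC and 11 in C17.2. Calls made up 75% and 71.4%, against 26.7% and 18.8% of all genes. Cd44, the hyaluronan receptor by which that class is often told, differed by 1.17 ± 0.33 (SE), adjusted p = 0.012, and by 0.87 without NSC replicate 5, under the size limit. This list shares Cd44, Tgfbi and Timp1 with the matrix list and Ccn2 with the contractile list. Tgfb1 and Tgfb3, ligands of the TGF-beta receptors, were higher in C17.2: Tgfb1 at least 4.01-fold and Tgfb3 by 1.88 ± 0.20 (SE), adjusted p = 1.4e-05. The chemokines Ccl2 and Ccl7, which draw monocytes, read 8.6, 7.27, 8.03 and 8.64 and 8.72, 7.45, 9.43 and 8.85 in C17.2. In NSC they read 5.51, 5.6, 5.18, 4.66 and 4.66 and 5.70, 5.61, 5.70, 4.55 and 4.92. Both were apart from NSC in all arrays (3.01 ± 0.31 and 3.31 ± 0.38, adjusted p = 9.3e-06 and 2.1e-05), and 6 of 13 tested chemokines and cytokines were called higher in C17.2 against 3 in NSC. Of the 6 detected on all 9 arrays, 1 was higher in NSC and 3 in C17.2. Shares of chemokines and cytokines called were 69.2% and 66.7%, against 26.7% and 18.8% of all genes.

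**Figure D3:**
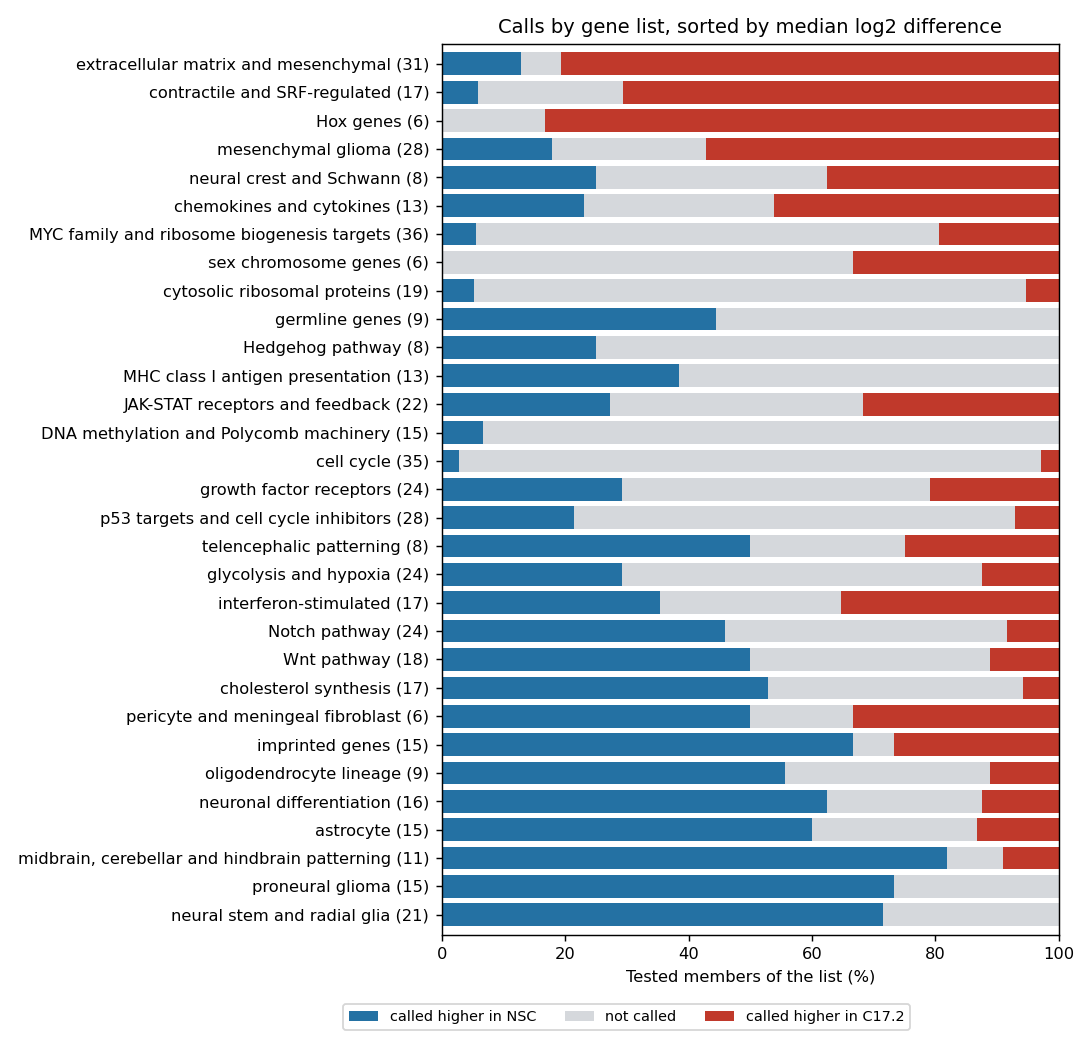
Share of the tested members of each gene list with 6 or more of them (horizontal axis, percent) called higher in NSC (blue), not called (grey) or called higher in C17.2 (red), with the number tested in parentheses; lists are ordered by median difference. The matrix list at the top has 25 of 31 members higher in C17.2 and the neural stem list at the bottom 15 of 21 higher in NSC, while 33 of 35 cell cycle genes were not called.

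Different growth factor receptors were high in each cell type. Egfr read 5.0, 4.5, 4.82 and 4.79 in the C17.2 controls and 11.63, 11.65, 11.33, 11.25 and 11.43 in the NSC controls. It was detected on no C17.2 control and was at least 75.5-fold higher in NSC (adjusted p = 4.5e-11). Ntrk2, the BDNF receptor, was at least 35.4-fold higher in NSC, and the fibroblast growth factor receptors Fgfr2 and Fgfr3 at least 17.6-fold and 5.1-fold. Fgfr1 was at least 1.49-fold higher. The receptor tyrosine kinase Axl, which binds Gas6, read 12.71, 12.61, 12.42 and 12.66 in the C17.2 controls and 8.07, 8.18, 8.0, 8.41 and 7.96 in the NSC controls. The gap was over 4 log2 units in every pair of arrays, a difference of 4.48 ± 0.15 (SE), adjusted p = 6.2e-10. Pdgfrb, a platelet-derived growth factor receptor of mesenchymal cells, was detected in C17.2 alone, at least 5.85-fold higher. Of 24 tested receptors 5 were called higher in C17.2 and 7 higher in NSC, or 50% against 26.7% of all genes. Of the 10 detected on all 9 arrays, 0 were higher in NSC and 1 in C17.2, or 10% against 18.8% of all genes so detected. All 7 receptors higher in NSC thus rest on genes not detected on every array.

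Of 24 tested Notch genes 11 were called higher in NSC and 2 higher in C17.2 (median -0.89). Of the 12 detected on all 9 arrays, 4 were higher in NSC and 1 in C17.2 (median -0.42). Shares called were 54.2% and 41.7%, against 26.7% and 18.8% of all genes. The ligand Dll1 differed by -2.26 ± 0.20 (SE), adjusted p = 2.3e-06, the non-canonical ligand Dner was at least 37.5-fold higher in NSC, and the target Hey1 differed by -3.56 ± 0.28 (SE), adjusted p = 1e-06. The receptor Notch1 did not pass (-1.21 ± 0.76 (SE), adjusted p = 0.2, with C17.2 replicate 3 at background), and Notch4 was higher in C17.2 (2.22 ± 0.45 (SE), adjusted p = 0.0015). Of 18 tested Wnt genes 9 were higher in NSC and 2 in C17.2 (median -1.0). Of the 9 detected on all 9 arrays, 3 were higher in NSC and 1 in C17.2 (median -0.37). Calls made up 61.1% and 44.4% of the Wnt list, against 26.7% and 18.8% of all genes. Axin2, a feedback target of the pathway, read 4.39, 4.61, 4.63 and 4.52 in the C17.2 controls and 8.14, 8.39, 8.06, 8.51 and 9.20 in the NSC controls. No C17.2 array detected it, and it was at least 9.47-fold higher in NSC (adjusted p = 5.2e-08). Among ligands Wnt7a was at least 8.48-fold higher in NSC, Wnt5a differed by -4.35 ± 0.19, and Wnt7b by -3.28 ± 0.66 with wide spread in both groups. Of 8 Hedgehog genes 2 were higher in NSC and 0 in C17.2, or 25% against 26.7% of all genes. Of the 5 detected on all 9 arrays, 1 was higher in NSC and 0 in C17.2. That is 20% against 18.8% of all genes so detected. The factor Gli2 was at least 8.13-fold higher in NSC, while the receptor and target Ptch1 did not pass (-0.28 ± 0.16 (SE), adjusted p = 0.16).

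The JAK-STAT list holds genes around the factors that the study introduced, here with the empty vector. Stat3, the cytokine-activated transcription factor, read 9.85, 9.73, 9.71 and 9.39 in the C17.2 controls and 11.19, 11.09, 10.12, 10.89 and 10.25 in the NSC controls. Cebpb, a bZIP factor that binds with it at inflammatory genes, read 9.59, 9.74, 10.33 and 10.12 in the C17.2 controls and 8.12, 8.29, 8.92, 8.56 and 9.02 in the NSC controls. The pair ran opposite ways: Stat3 was higher in NSC (-1.04 ± 0.24 (SE), adjusted p = 0.0038) and Cebpb in C17.2 (1.36 ± 0.23 (SE), adjusted p = 0.00046). The Stat3 difference was near the size limit and lost its call in 8 of the alternatives, with -0.90 against slide 6 alone. Socs3, a STAT3 feedback inhibitor, did not reach the size limit (0.90 ± 0.29 (SE), adjusted p = 0.023), and was called against slide 6 alone (1.36, adjusted p = 0.0167) and without NSC replicate 2 (a difference of 1.0, adjusted p = 0.0209). Jak2, the kinase, differed by -2.28 ± 0.22 (SE), adjusted p = 5.7e-06, while the probes of Jak1 disagreed: the brightest, which no C17.2 array detected, gave at least 6.83-fold toward NSC and the other a difference of 0.33. Stat6 was detected in C17.2 alone, at least 5.48-fold higher. Of other transcription factors, Fosl2 (1.69 ± 0.29) and Runx1 (1.47 ± 0.45) were higher in C17.2 and Bhlhe40 (-2.91 ± 0.35) in NSC. Runx1 overlapped between groups, and against the slide 4 NSC controls alone it was 0.81 (adjusted p = 0.0565). Of 22 tested genes of the list 7 were called higher in C17.2 and 6 higher in NSC. Of the 15 detected on all 9 arrays, 4 were higher in NSC and 3 in C17.2. Shares called were 59.1% and 46.7%, against 26.7% and 18.8% of all genes.

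Few genes of the cell cycle were called. Of 35 tested, all detected on all 9 arrays, 1 was called in each direction, or 5.71% against 18.8% for all genes so detected, with a median difference of -0.38. Top2a, the DNA topoisomerase of dividing cells, read 10.05, 9.72, 9.96 and 10.04 in the C17.2 controls and 10.72, 10.70, 11.27, 10.51 and 10.54 in the NSC controls, and Pcna, the replication clamp, 6.73, 6.09, 6.21 and 6.43 in the C17.2 controls and 7.65, 6.97, 6.72, 7.41 and 6.87 in the NSC controls. Top2a was lower in all C17.2 arrays, yet both differed by under 2-fold (-0.80 ± 0.18 (SE), adjusted p = 0.0031, and -0.76 ± 0.22 (SE), adjusted p = 0.013). The called genes were Ccnd1, cyclin D1 (-1.97 ± 0.28 (SE), adjusted p = 0.00012), higher in NSC, and Cdt1, which licenses replication (1.26 ± 0.30 (SE), adjusted p = 0.0041), higher in C17.2. Cdt1 was 0.94 against the slide 4 NSC controls alone. Mki67 and Ccnb1 were not analysed here.

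Mouse Myc and Mycl, growth-promoting transcription factors, were lower in the line. Myc read 4.43, 4.79, 4.61 and 4.43 in the C17.2 controls and 6.51, 6.86, 7.46, 6.95 and 6.8 in the NSC controls. Mycl read 4.60, 4.66, 4.52 and 4.53 in the C17.2 controls and 8.24, 8.32, 7.10, 7.62 and 7.73 in the NSC controls. No C17.2 control detected either, and they were at least 3.24-fold and 5.99-fold higher in NSC (adjusted p = 1.4e-06 and 4.7e-07), while Mycn was detected on no array. Whether the Myc probe reads v-myc was not tested. Of 36 tested members of the list of MYC genes and ribosome biogenesis targets 7 were higher in C17.2 and 2 in NSC (median 0.45). The 2 were Myc and Mycl themselves, and 25% of the list was called against 26.7% of all genes. Of the 32 detected on all 9 arrays, 7 were higher in C17.2 and 0 in NSC. That is 21.9% against 18.8% of all genes so detected. Bop1, a factor of large subunit assembly, read 10.72, 10.17, 10.88 and 10.80 in the C17.2 controls and 9.51, 9.39, 8.08, 8.11 and 8.20 in the NSC controls. All C17.2 arrays were above NSC, and NSC replicates 1 and 2 were above the other NSC arrays (1.98 ± 0.33 (SE), adjusted p = 0.00042). Shmt2, a mitochondrial serine enzyme, differed by 1.96 ± 0.18 (SE), adjusted p = 3.7e-06. Of 19 tested ribosomal protein genes 1 was called in each direction, or 10.5% against 26.7% of all genes. Of the 18 detected on all 9 arrays, 1 was called in each direction, or 11.1% against 18.8% of all genes so detected.

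The Cdkn2 locus, which encodes inhibitors of the cell cycle on chromosome 4, was split between its genes. Cdkn2a read 7.36, 7.78, 7.23 and 7.54 in the C17.2 controls and 4.79, 4.77, 4.97, 4.83 and 4.61 in the NSC controls. Cdkn2b read 4.49, 4.62, 4.53 and 4.41 in the C17.2 controls and 9.14, 8.88, 8.59, 8.78 and 9.79 in the NSC controls. Cdkn2a was higher in C17.2 (2.68 ± 0.16 (SE), adjusted p = 6.8e-08) and Cdkn2b was detected in NSC alone, at least 14.1-fold higher (adjusted p = 1.7e-08). Other probes of Cdkn2a differed by 0.23 to 2.40, and the probe detected on all 9 arrays gave 0.23. Cdkn1a, the p21 inhibitor induced by p53, read 10.15, 10.60, 9.94 and 10.37 in the C17.2 controls and 11.81, 11.89, 12.28, 12.58 and 13.14 in the NSC controls, higher in NSC by a difference of -2.07 ± 0.27 (SE), adjusted p = 6e-05. Of 28 tested p53 targets and inhibitors 2 were higher in C17.2 and 6 in NSC (28.6% against 26.7% of all genes). Of the 22 detected on all 9 arrays, 1 was higher in C17.2 and 3 in NSC. That is 18.2% against 18.8% of all genes so detected. Trp53 itself was not analysed here.

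Imprinted genes were called often, 14 of 15 tested, against 26.7% of all genes: 4 were higher in C17.2 and 10 in NSC. Of the 5 detected on all 9 arrays, 2 were higher in NSC and 2 in C17.2 (median -0.62 against -1.39 over all tested members). That is 80% against 18.8% of all genes so detected. Grb10, an adaptor that restrains growth receptors, read 10.09, 10.08, 10.02 and 9.95 in the C17.2 controls and 4.54, 4.61, 4.56, 4.74 and 4.62 in the NSC controls. Peg3, a zinc finger gene expressed from the paternal copy, read 4.57, 4.51, 4.40 and 4.55 in the C17.2 controls and 10.69, 10.71, 10.05, 9.66 and 8.16 in the NSC controls. Grb10, by a probe above background on no NSC array, was at least 33.2-fold higher in C17.2 (adjusted p = 4.5e-11), and Peg3, undetected in C17.2, was at least 24.9-fold higher in NSC (adjusted p = 1.2e-06), with NSC replicate 5 lowest. Ndn differed by -5.62 ± 0.29 and Mest by -5.37 ± 0.26, both higher in NSC. Igf2r, which clears insulin-like growth factor 2, was higher in C17.2 (1.87 ± 0.29 (SE), adjusted p = 0.00022), and Igf2 itself was at least 1.76-fold higher in NSC. Dlk1 was called (-1.39 ± 0.48 (SE), adjusted p = 0.03) but lost the call in 13 of the alternatives. H19 was not analysed here. The array reads total RNA, so which parental copy was expressed was not measured.

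Genes of the sex chromosomes followed the arrays apart. The Y-linked demethylase Kdm5d read 6.25, 6.66, 6.23 and 6.41 in the C17.2 controls and 4.45, 4.39, 4.54, 6.82 and 4.47 in the NSC controls. Every C17.2 array and NSC replicate 4 were high. The cell type difference in Eif2s3y (3.59 ± 0.74 (SE), adjusted p = 0.0018) and Kdm5d (1.46 ± 0.44 (SE), adjusted p = 0.016) therefore rests on the other 4 NSC arrays, and neither was called against slide 6 alone (adjusted p = 0.0682 and 0.294). Uty did not reach 2-fold (0.72 ± 0.21 (SE), adjusted p = 0.014). Of 15 tested DNA methylation and Polycomb genes, all detected on all 9 arrays, 1 was called, or 6.67% against 18.8% of all genes so detected. The called gene was Ezh2, the Polycomb methyltransferase (-1.10 ± 0.33 (SE), adjusted p = 0.016), which lost its call in 9 of the alternatives. Dnmt1, the maintenance methyltransferase, differed by -0.15 ± 0.18 (SE), adjusted p = 0.51. Of 9 tested germline genes 4 were higher in NSC and 0 in C17.2, or 44.4% against 26.7% of all genes. Of the 5 detected on all 9 arrays, 1 was higher in NSC and 0 in C17.2, or 20% against 18.8% of all genes so detected.

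Antigen presentation and interferon genes were mixed. H2-K1, a classical class I chain, read 5.22, 5.22, 4.60 and 5.21 in the C17.2 controls and 8.39, 7.99, 7.30, 6.73 and 7.87 in the NSC controls, and H2-D1, another, read 8.21, 8.29, 8.65 and 8.16 in the C17.2 controls and 7.58, 7.66, 8.38, 6.59 and 8.69 in the NSC controls. H2-K1 was higher in NSC (-2.59 ± 0.30 (SE), adjusted p = 2.8e-05) and H2-D1 overlapped (0.55 ± 0.35 (SE), adjusted p = 0.21); their sequences are alike, so probes may read both. B2m, the light chain of class I, did not reach 2-fold (0.76 ± 0.19 (SE), adjusted p = 0.0056) and was 1.10 under median scaling. Of 13 tested class I genes 5 were higher in NSC and 0 in C17.2, or 38.5% against 26.7% of all genes. Of the 9 detected on all 9 arrays, 1 was higher in NSC and 0 in C17.2, or 11.1% against 18.8% of all genes so detected. Of 17 interferon-stimulated genes 6 were higher in each (70.6% called). Of the 11 detected on all 9 arrays, 4 were higher in NSC and 5 in C17.2 (81.8% called). Of 17 tested cholesterol synthesis genes 9 were higher in NSC and 1 in C17.2 (median -1.04, 58.8% called). Of the 14 detected on all 9 arrays, 6 were higher in NSC and 1 in C17.2 (50% called). Of 24 glycolysis and hypoxia genes 7 were higher in NSC and 3 in C17.2 (41.7% called). Of the 20 detected on all 9 arrays, 4 were higher in NSC and 2 in C17.2 (30% called). Beside the interferon, cholesterol and glycolysis lists, the rates over all genes were 26.7% of those tested and 18.8% of those on all 9 arrays.

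Markers of other cell types were detected in part. Of 17 microglial genes with a probe 10 were detected on no array, among them Cx3cr1, Itgam and Ptprc, while Aif1 and Csf1r were detected on 4 NSC arrays at signals of at most 5.55 and 5.32, near background. Laptm5, a lysosomal protein of blood cells, read 8.30, 6.91, 5.23 and 5.18 in C17.2 and was detected on no NSC array. The 1 microglial gene tested, Cd14, was not called. Of 14 endothelial genes 3 were tested: Ly6c1 and Egfl7 were higher in C17.2 and Ramp2 in NSC, and Cdh5 and Cldn5 were among 5 detected on no array. Emcn, an endothelial sialomucin, read 4.93, 5.04, 4.88, 8.94 and 5.95 in NSC, high on replicate 4, and Esam, a junction protein, read 5.91, 5.74, 5.86, 4.73 and 5.88, low on replicate 4. Neither was detected in C17.2. Flt1, a receptor for vascular growth factor, was detected on 2 C17.2 and 3 NSC controls. Of 19 pericyte and meningeal genes 6 were tested, 2 higher in C17.2, of which 1 is Pdgfrb, and 3 in NSC, while Rgs5, Lum and Dcn were among 11 detected on no array. None of 8 erythroid genes with a probe was tested. The part of other cells in the differences above was not tested further, and in such bulk RNA fewer cells of a type and less RNA per cell cannot be told apart.

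The arrays with STAT3C, CEBPB or both give the same contrast of cell types without any control array. In them 23.9%, 26.2% and 24.6% of the genes tested were called in either direction. Of the 1096 genes higher in the C17.2 controls, 750 were called the same way with STAT3C (68.4% of these, and 74.6% of the genes called that way there), 701 with CEBPB (64.0% and 64.3%) and 690 with both (63.0% and 71.4%). Of the 1295 higher in the NSC controls the counts were 950 (73.4% and 79.7%), 906 (70.0% and 70.9%) and 910 (70.3% and 74.1%). Calls in the opposite direction were 0, 6 and 3 for the first set and 2, 6 and 3 for the second. All 12 transduced C17.2 arrays were apart from all 13 transduced NSC arrays for 640 (58.4%) and 829 (64.0%) of the genes. The share of all tested genes apart in the transduced arrays was not counted. How far these shares, and the counts of named genes below, differ from a general rate therefore cannot be told. In the control arrays, which are fewer, signals did not overlap for 44.1% of all tested genes.

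All 19 genes named above for the largest differences toward NSC, and 14 of the 18 toward C17.2, were apart in all transduced arrays. S100a6 ran from 11.27 to 11.85 (median 11.59) in C17.2 and from 4.46 to 5.36 (median 4.83) in NSC, and Olig1 from 4.38 to 4.72 (median 4.56) in C17.2 and from 13.92 to 14.42 (median 14.29) in NSC. The 4 that overlapped were Sox10, Serpinf1, Capn6 and Moxd1. Sox10 ran from 4.36 to 12.43 (median 7.79) in C17.2 and from 4.38 to 4.82 (median 4.5) in NSC, and only 6 of the 12 C17.2 arrays read above 8. Moxd1 ran from 4.48 to 11.59 (median 6.61) in C17.2 and from 4.67 to 6.06 (median 5.37) in NSC, and Capn6 from 4.52 to 11.15 (median 8.37) in C17.2 and from 4.37 to 4.77 (median 4.5) in NSC. Beyond the largest differences, Ngfr also overlapped, with 6 of 12 C17.2 arrays above 8, and so did Notch1, with 11 of 12 C17.2 arrays below every NSC array. Sox2 and En1 stayed apart in all transduced arrays. Sox10 varied within 1 vector on 1 slide too: the C17.2 arrays with STAT3C, all on slide 2, read 12.43, 10.61, 4.96 and 11.19. The source of this spread was not tested. Among the transduced arrays vector and slide overlapped only in part, and the labels name no cultures. Each slide held 1 cell type, so cell type and slide cannot be told apart there either.

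**Figure D4:**
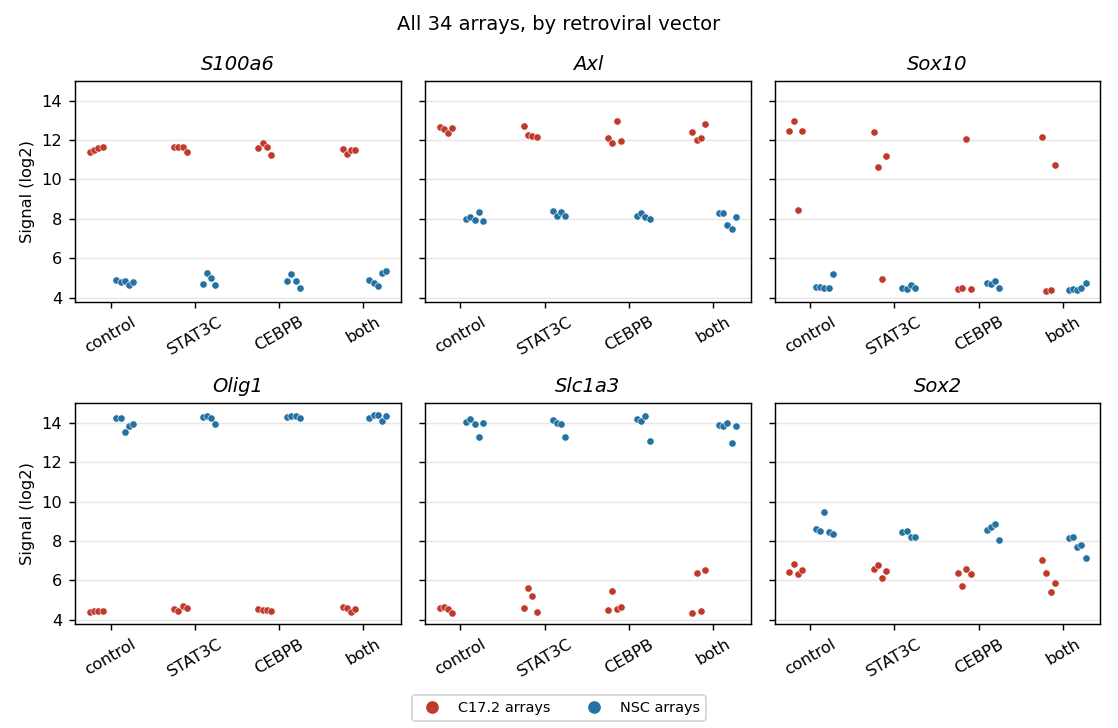
Log2 signal (vertical axis) of 6 genes on all 34 arrays, normalised together, by retroviral vector (horizontal axis), with C17.2 arrays in red and NSC arrays in blue. S100a6, Axl, Olig1, Slc1a3 and Sox2 are apart in every group, while Sox10 in transduced C17.2 arrays ranges from 4.36 to 12.43.

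By chromosome, the difference was not even. Over the 7042 genes detected on all 9 arrays and placed on a chromosome the median was 0.06, with 53.7% of genes positive. Chromosome medians ran from -0.17 on chromosome 18 and -0.14 on chromosome 2 to 0.26 on chromosome 10, where 64.3% of 364 genes were positive, 0.25 on 19 and 0.25 on 8. Taken one array at a time against the NSC mean, chromosome 10 gave 0.26, 0.29, 0.21 and 0.27 in the C17.2 controls, and chromosome 15 gave 0.23, 0.22, 0.21 and 0.25. These were alike in all 4 arrays. Others were not: chromosome 1 gave 0.11, 0.05, 0.05 and -0.21, chromosome 12 -0.10, 0.08, 0.34 and 0.16, and chromosome 3 -0.15, 0.04, 0.10 and 0.10. Replicate 4 was the low array for chromosome 1 and replicate 1 for chromosomes 3 and 12. In NSC, replicate 5 had the highest medians for chromosome 7 (0.18) and chromosome 17 (0.16) against the other NSC arrays. These shifts are far below 2-fold, hold over many genes and are given as a description, and the number of chromosome copies was not measured.

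**Figure D5:**
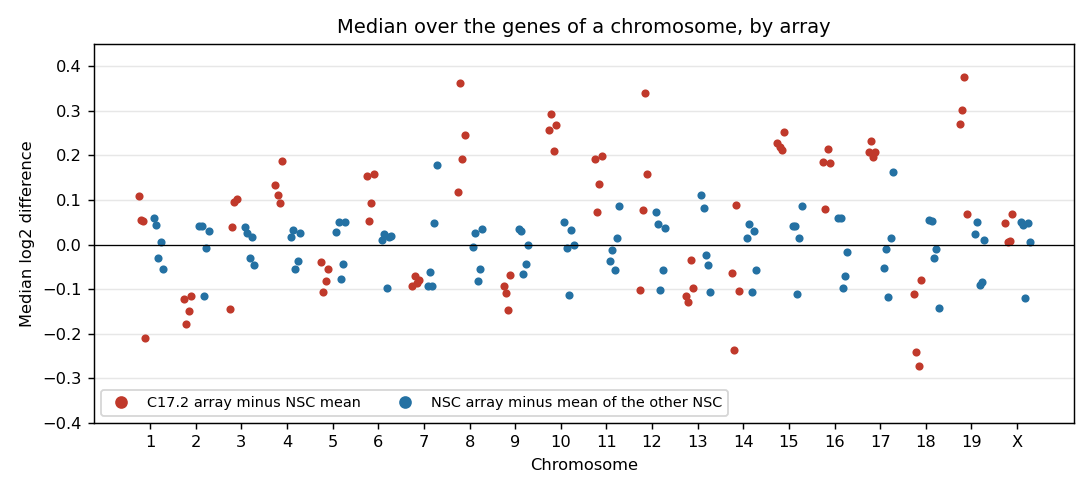
Median log2 difference over the genes of each chromosome (horizontal axis) detected on all 9 arrays, for each C17.2 array minus the NSC mean (red) and each NSC array minus the mean of the other NSC arrays (blue). The 4 C17.2 arrays lie between 0.21 and 0.29 on chromosome 10 and spread from -0.21 to 0.11 on chromosome 1.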

How the data were processed

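Illumina MouseWG-6 v2 bead signals were used as deposited: linear intensity per probe, background-subtracted and not normalised between arrays per the file headers and values, with a detection p-value and a bead number (a median of 44 to 45) per probe. The submitters' processing notes name BeadStudio and lumi. The authors' deposited normalised log2 values, whose method is not stated, served as an alternative. Of 45281 probes, 34885 have 1 gene symbol. The 9 control arrays were corrected and quantile-normalised with neqc (offset of 16, log2) in limma 3.58.1 under R 4.3.3. Each gene was represented by the passing probe with the highest mean. Groups were compared with lmFit and eBayes, adjusted by Benjamini-Hochberg. Where no array of the lower group detected a gene, its fold is a lower bound against the lowest detected signal of each array. Genes were named as the largest called differences and as defining and largest called members of gene lists; Cfl1, Gas7 and Plekhb1 were chosen after their values were seen. Members and lists were chosen with earlier results of these data known. Alternatives covered normalisation, offset, filter, probe rule, test, slide and left-out arrays. The fit was tested on simulated data.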

Additional observations from a re-analysis of the deposited data

Results flagged for a closer look

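Among the 143 genes named with a test and the share of probes detected, each group of control arrays was examined for an array set apart from the rest by Dixon's criterion. An array was apart in 41 of 288 groups of values. Chance alone gives about 1 in 20 for independent groups. These groups were read on the same 9 arrays, so the count cannot be tested against that rate. The log2 signal of the array apart is given. For C17.2 control replicate 1, this was Igf2 at 5.04. For C17.2 control replicate 2, these were Nr2f2 at 7.91, Aldoc at 5.53 and Nfia at 5.72. For C17.2 control replicate 3, these were Moxd1 at 10.52, Ednrb at 4.85, Igdcc4 at 5.55, Crmp1 at 6.14, Sox10 at 8.51, Ngfr at 6.12, Fn1 at 11, Notch1 at 4.74, Ccnd1 at 11.27, Jak1 at 4.53 and H2-K1 at 4.60. For C17.2 control replicate 4, these were Rfx4 at 4.85 and Zic1 at 4.88. Igf2, Ednrb, Jak1, Rfx4 and Zic1 were read by probes that no C17.2 control detected, so these values lie at background. For NSC control replicate 3, these were Tgfbi at 6.17, Serpinf1 at 5.47, Palmd at 9.54, Sox2 at 9.52, Ngfr at 5.12, Fgfr1 at 6.66, Top2a at 11.27 and Bhlhe40 at 9.20. For NSC control replicate 4, these were Slc1a3 at 13.36, Trim9 at 9.78, Nr2f2 at 5.72, En1 at 7.95, Csrp1 at 9.32, Eif2s3y at 8.56, Kdm5d at 6.82 and Socs3 at 7.13. For NSC control replicate 5, these were Igdcc4 at 10.77, Lhx2 at 6.11, Hoxc9 at 5.28, Sox10 at 5.27, Olig2 at 7.71, Tfap2a at 5.27, Col3a1 at 5.13 and Ezh2 at 8.98. C17.2 replicate 3 accounts for 11 of them, and for Sox10, Ngfr and Notch1 it was the low array; NSC replicate 4 was the high array for Csrp1, Kdm5d and Eif2s3y. The source of these differences between arrays of 1 group was not tested.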

How the results depend on the processing

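The counts of 1096 genes higher in C17.2 and 1295 higher in NSC stayed within 1.5 times under most alternatives: from 1053 to 1128 and from 1256 to 1342 when 1 control array was left out, and 1121 and 1258 with the NSC controls of slide 4 alone or 1159 and 1426 with slide 6 alone. The authors' deposited values gave 334 and 411, limma's treat against a log2 difference of 1 gave 489 and 608, and only genes detected on all 9 arrays gave 738 and 564, for fewer genes tested. In the deposited values every gene called kept its sign, and 1084 and 1257 kept an adjusted p below 0.05. Between cell types with STAT3C, CEBPB or both, the deposited values gave 719, 804 and 747 genes. Between NSC slides the count was 0, with 2 when no detection filter was used, and 0 to 93 when 1 NSC array was left out (93 without replicate 3 and 91 without replicate 5). The direction turned for Nes, which was not called, to 0.0159 under median scaling, 0.24 with the mean over probes and 0.0328 with slide 4 alone. It also turned for Palmd (0.52), Igdcc4 (0.15) and Jak1 (0.33) when the gene had to be detected on all 9 arrays, which selects another probe. Of 143 named genes 94 kept their direction and call, treat aside, under each alternative in which they were tested; detection on all 9 arrays left 55 of them tested and detection p below 0.01 left 136. No paired analysis was possible because the labels of the control arrays carry no replicate number that ties a C17.2 array to an NSC array, and the numbers used here are in accession order. Cell type and slide cannot be told apart in any alternative, 4 and 5 arrays limit the precision, and genes near background have lower bounds only.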
